A study of Mus musculus with 24 samples.

Results

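The 41 genes described here encode the proteins that bring glucose into the cell, break it down to pyruvate, exchange lactate and admit pyruvate to the mitochondrion, together with the first enzymes of the pentose phosphate pathway and the hypoxia-inducible factor subunit Hif1a. They were listed by symbol, and all 41 were found among the 41388 genes of the count table. Their levels were measured by RNA sequencing of a portion of the heart from 24 male wild type Balb/c mice (BALB/cAnNCrl in the study's methods) in a time course of experimental autoimmune myocarditis (EAM). EAM mice were immunized at 8 to 10 weeks of age with a cardiac myosin heavy chain peptide emulsified in supplemented complete Freund's adjuvant (SCFA), on day 0 and again on day 7, and were given pertussis toxin (PTX) on day 0. Control mice received the same SCFA and PTX with PBS in place of the peptide, so that each of the 24 hearts comes from a mouse exposed to both adjuvants, and hearts of untreated mice were not among them. Hearts were taken on day 10 (D10), day 15 (D15) or day 21 (D21), with 4 EAM and 4 control hearts at each time point. Because EAM may not develop in every immunized mouse of this strain, the study chose samples so that inflammation was present as far as possible, which limits the EAM groups as a sample of immunized mice. By the study's own measures, no D10 EAM mouse had raised CD45-positive leukocytes in the heart or raised cardiac troponin I.

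Glycolysis splits glucose into 2 molecules of pyruvate in the cytosol, and most of its steps are catalysed by families of isoenzymes that differ between tissues. Heart and skeletal muscle rely on muscle-type members such as Pfkm, Pgam2 and Eno3, whereas most other cells, leukocytes and fibroblasts included, use Pfkl or Pfkp, Pgam1 and Eno1. Pyruvate is then either reduced to lactate by lactate dehydrogenase and passed across the plasma membrane by monocarboxylate transporters, or carried into mitochondria and oxidized by the pyruvate dehydrogenase (PDH) complex, which PDH kinases switch off. The adult heart draws most of its energy from fatty acids and takes up lactate as a fuel, while activated leukocytes are known for high glycolytic flux.

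The promoters of 6 members are shown as examples. They belong to some of the pairs that do the same job and moved in opposite directions at D15, namely Pgam1 and Pgam2, Eno1 and Eno3, and Slc16a3 and Slc16a1. Many glycolytic genes are known targets of hypoxia-inducible factors, which bind hypoxia response elements with the core ACGTG or GCGTG. Each sequence runs 5′ to 3′ on the strand of its gene, from 250 bases before to 50 after a transcription start annotated by RefSeq on GRCm38.p6, and Eno1 is shown by the first of its 3 annotated starts. Capitals mark ACGTG or GCGTG, or the same letters read on the opposite strand (CACGT or CACGC), and the run CACGTG in the last sequence holds ACGTG on both strands.
Pgam1, chr19:41911621-41911920, plus strand: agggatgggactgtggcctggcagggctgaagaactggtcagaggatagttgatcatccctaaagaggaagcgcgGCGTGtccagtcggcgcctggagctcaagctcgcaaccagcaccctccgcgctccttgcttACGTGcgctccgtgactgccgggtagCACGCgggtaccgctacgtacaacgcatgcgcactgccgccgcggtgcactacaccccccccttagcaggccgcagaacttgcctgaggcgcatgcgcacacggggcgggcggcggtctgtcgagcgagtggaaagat
Pgam2, chr11:5803747-5804046, minus strand: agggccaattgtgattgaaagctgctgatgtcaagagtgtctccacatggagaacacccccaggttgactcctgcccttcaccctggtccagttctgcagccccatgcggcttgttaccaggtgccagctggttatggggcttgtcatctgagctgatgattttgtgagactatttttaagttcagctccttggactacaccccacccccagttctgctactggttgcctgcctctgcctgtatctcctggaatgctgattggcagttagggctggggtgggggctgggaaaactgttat
Eno1, chr4:150236458-150236757, plus strand: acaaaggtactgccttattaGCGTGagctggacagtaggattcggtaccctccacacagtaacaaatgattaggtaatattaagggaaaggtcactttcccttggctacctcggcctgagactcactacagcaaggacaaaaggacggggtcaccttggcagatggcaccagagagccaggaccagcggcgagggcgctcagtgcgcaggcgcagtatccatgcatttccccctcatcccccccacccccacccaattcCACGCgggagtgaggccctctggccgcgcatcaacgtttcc
Eno3, chr11:70656926-70657225, plus strand: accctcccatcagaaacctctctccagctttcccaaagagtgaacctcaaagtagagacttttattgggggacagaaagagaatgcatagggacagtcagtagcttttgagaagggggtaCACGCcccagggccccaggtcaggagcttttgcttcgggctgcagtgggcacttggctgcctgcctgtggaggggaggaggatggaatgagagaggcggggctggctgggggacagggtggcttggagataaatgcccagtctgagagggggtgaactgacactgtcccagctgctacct
Slc16a3, chr11:120948817-120949116, plus strand: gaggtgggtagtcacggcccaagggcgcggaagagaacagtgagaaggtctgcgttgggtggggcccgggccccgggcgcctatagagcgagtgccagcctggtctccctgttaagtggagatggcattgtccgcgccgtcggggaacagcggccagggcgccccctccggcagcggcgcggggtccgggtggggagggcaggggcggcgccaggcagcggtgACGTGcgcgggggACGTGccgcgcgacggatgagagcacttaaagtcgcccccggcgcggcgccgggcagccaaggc
Slc16a1, chr3:104638414-104638713, plus strand: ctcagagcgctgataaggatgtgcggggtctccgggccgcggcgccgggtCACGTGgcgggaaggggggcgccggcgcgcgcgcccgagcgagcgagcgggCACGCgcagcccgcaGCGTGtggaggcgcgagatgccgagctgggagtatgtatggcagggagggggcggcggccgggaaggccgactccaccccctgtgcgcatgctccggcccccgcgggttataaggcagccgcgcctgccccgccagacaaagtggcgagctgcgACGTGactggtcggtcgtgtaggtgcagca

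Counted on both strands, the windows held 3 matches for Pgam1, 0 for Pgam2, 2 for Eno1, 1 for Eno3, 2 for Slc16a3 and 5 for Slc16a1. Of the 41 members, 39 had a window in the RefSeq table, and 35 of these 39 (89.7%) had ACGTG or GCGTG in at least 1 window, against 46.7% of 27025 genes with a window of the same length. Both motifs contain CG, and this background was not matched to the members for base content or expression. Counted by window, the shares were 75.0% of 60 member windows and 43.8% of 32851 windows in all. The palindrome CACGTG, which contains ACGTG on either strand and is also known as an E-box, was in a window of 17.9% of members and 8.09% of all genes. The motif was held by 14 of the 14 members with a window that were higher in EAM hearts at D15, by 14 of 17 that were lower and by 7 of 8 that did not pass the test. With so few members lacking it, its presence could hardly tell the directions apart. A match describes the letters in a window and does not show that a factor binds there.

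The libraries held 15814863 to 24980864 counts each, and the 41 members together took 1.69 to 1.86% of the counts in control hearts, 1.27 to 1.40% in D15 EAM hearts and 1.48 to 1.93% in D21 EAM hearts. Levels are given as CPM (reads scaled to a common library total) after TMM normalization over the 24 libraries, in the order of replicates 1 to 4, and 3 counts correspond to 0.120 to 0.190 CPM. The tissue carried its defining markers: the summed level of 13 cardiomyocyte genes was 48616 to 59678 CPM in control hearts, and no gene of that list was at 0. At D15 that sum was 13805 to 32668 CPM in EAM hearts against 48616 to 55894 CPM in controls, while 5 leukocyte genes summed to 1141 to 1487 CPM against 95.5 to 117 CPM, 15 monocyte and macrophage genes to 4148 to 5922 CPM against 739.6 to 886 CPM, and 8 fibroblast genes to 9417 to 17429 CPM against 3567 to 4388 CPM. In such bulk samples, fewer cells of a type and less RNA per cell cannot be told apart. EAM replicate 1 at D10 stood apart from its group, with a leukocyte sum of 925 CPM against 170 to 354 CPM in the other D10 EAM hearts and 124 to 228 CPM in the D10 controls. The 4 D21 EAM libraries carry another library code than the other 20 libraries, so at D21 the library code and EAM cannot be told apart.

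In the 12 control hearts Ldhb and the muscle-type genes Eno3, Aldoa, Pgam2 and Pfkm had the highest levels per kb of exon length. Exon length here merges all annotated exons of a gene. It can exceed the length of any single transcript, so the ranks below depend on it. Ldhb, which encodes the lactate dehydrogenase subunit typical of heart, led at 953 CPM per kb (range 777 to 1109.8), followed by Eno3 at 817 CPM per kb (range 753 to 944), Aldoa at 769 CPM per kb (range 675 to 861), Pgam2 at 676 CPM per kb (range 610.0 to 758) and Pfkm at 332 CPM per kb (range 312 to 376). The ranges of neighbours in this order overlapped from Ldhb to Pgam2, so those steps are within the spread between hearts, and Pfkm lay below all of the other 4. Slc2a4 was the highest of the 4 glucose transporters at 162 CPM per kb (range 149 to 176), Hk2 of the 3 hexokinases at 61.4 CPM per kb (range 54.5 to 69.4), Pdha1 of the pyruvate entry genes at 304 CPM per kb (range 280.1 to 341) and Pdk4 of the PDH kinases at 273 CPM per kb (range 142 to 405) on average, with a range that took in that of Pdk2 at 189.7 CPM per kb (range 171 to 204). At the other end stood Aldoc at 0.0671 CPM per kb (range 0.0160 to 0.105), with every control heart below every value of the next gene, then Slc2a6 at 0.432 CPM per kb (range 0.232 to 0.906), Slc2a3 at 0.797 CPM per kb (range 0.374 to 2.29) and Hk3 at 0.830 CPM per kb (range 0.537 to 1.36).

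Between time points, few members passed the test in the controls. Of 40 members tested, 0 passed an FDR of 0.01 between D15 and D10 controls, where the percentage of all genes past it was 0, and 2 were higher and 6 lower at an unadjusted p under 0.05, where 8.28% and 8.31% of all genes were (DESeq2 called 3 members, and 0.703% of all genes higher and 1.55% lower). Between D21 and D15 controls 0 of 40 passed with edgeR (0% of all genes) and with DESeq2 (0.0728% higher and 0.0662% lower), with 1 higher and 9 lower at an unadjusted p under 0.05, where 5.1% and 5.05% of all genes were. Between D21 and D10 controls only Slc16a3 of the 40 passed with edgeR (DESeq2 called 6 members, in a background of 3.71% higher and 3.05% lower), with a level of 8.79, 8.45, 8.65 and 7.66 CPM at D10 and 5.39, 5.33, 4.29 and 5.02 CPM at D21. All 4 D21 controls lay below all 4 D10 controls (log2 fold change -0.74, SE 0.11, FDR 0.0037), where 1.68% of genes were higher and 0.637% lower, and the call was lost when D10 control replicate 2 or 3 or D21 control replicate 1, 3 or 4 was left out.

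EAM and control hearts were compared first at D15, the time point at which the most genes differ. FDR stands for the p-value of edgeR's quasi-likelihood test after Benjamini-Hochberg adjustment, here over the 15693 genes tested, and a gene is called at an FDR under 0.01 with at least a 2-fold change. Of the 41 members, 15 were called higher and 15 lower in EAM hearts, where 18.1% of all genes tested were called higher and 12.9% lower. The 15 called higher include Aldoc, which reached the read minimum only through the EAM hearts. At any fold, 15 members were higher and 18 lower (33.2% and 31.1% of all genes), and the median log2 fold change of the 41 was -0.09 against 0.02 over all genes. The groups did not overlap for 15 members that were higher in all 4 EAM hearts and 18 that were lower, against 34.6% and 35.9% of all genes. The 33 members past the FDR are these same 33, so the values below differ without overlap wherever a gene is said to have risen or fallen at D15.

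**Figure D1:**
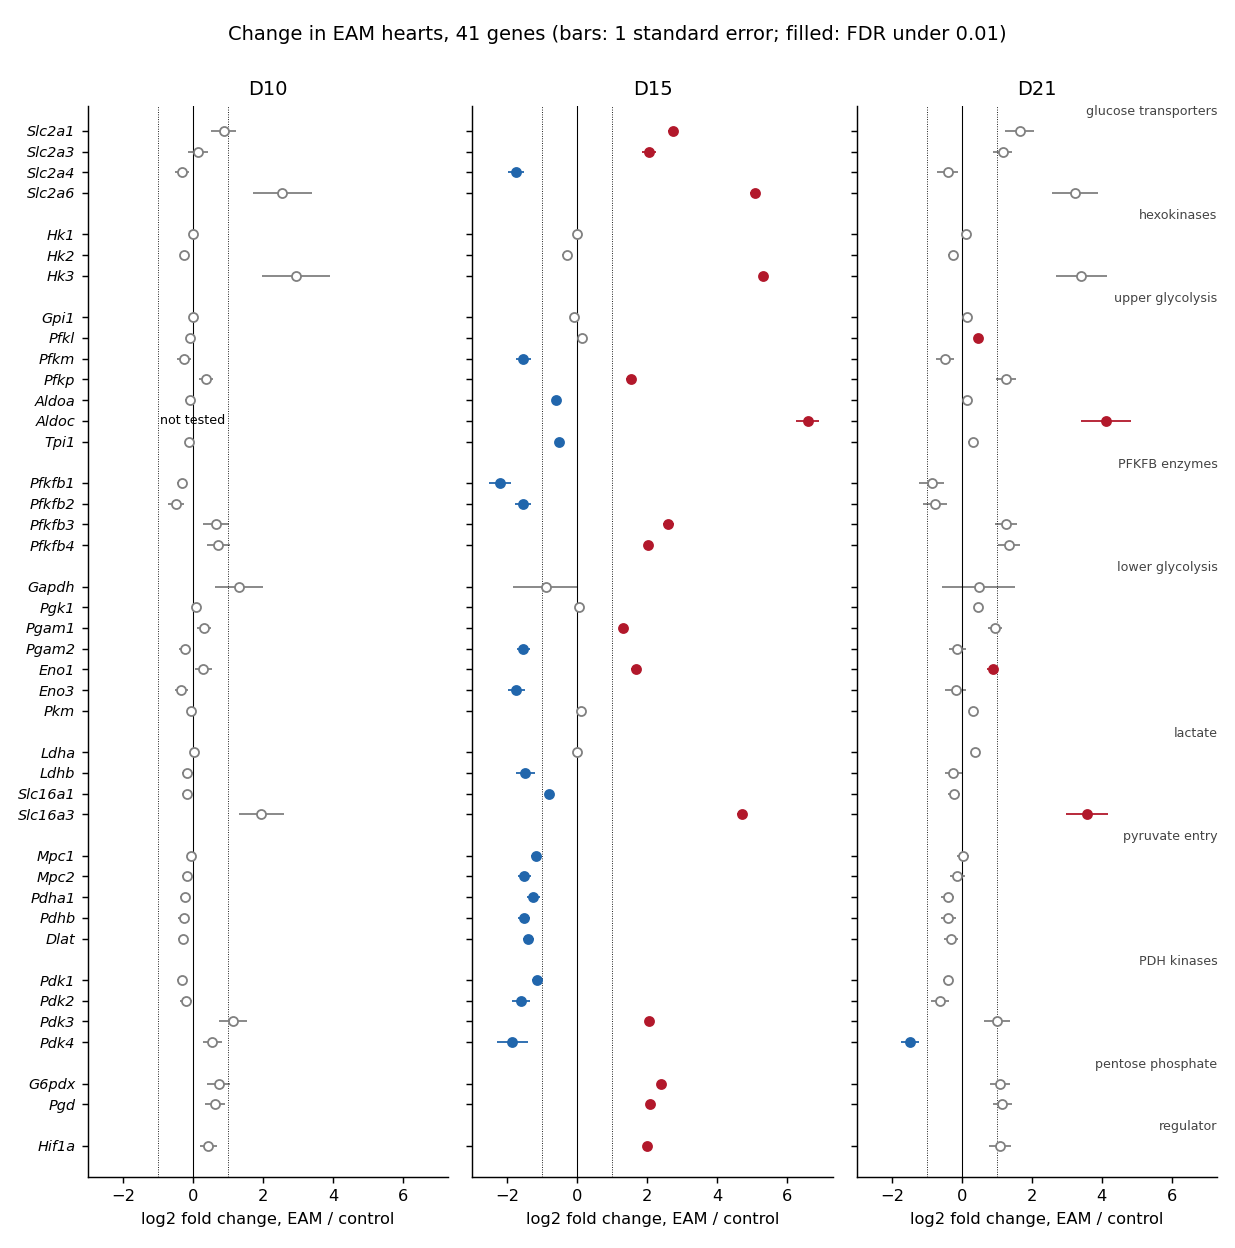
Log2 fold change of each of the 41 genes in EAM against control hearts at D10, D15 and D21 (x axis), grouped by role (y axis), with 4 hearts a group, bars of 1 standard error derived from the test statistic and filled symbols for an FDR under 0.01 (Aldoc was not tested at D10). At D15 a set of 15 genes, Hk3 and Slc2a6 among them, lies to the right and 18 lie to the left, whereas 0 symbols are filled at D10 and 5 at D21.

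Among the glucose transporters, Slc2a1, Slc2a3 and Slc2a6 rose and the insulin-responsive form Slc2a4 fell. Slc2a1 (GLUT1), the basal transporter of most cells, was at 123, 163, 118 and 154 CPM in D15 EAM hearts and at 16.6, 22.8, 24.3 and 23.0 CPM in D15 controls. Every EAM heart exceeded every control several-fold (log2 fold change 2.73, SE 0.15, FDR 5.02e-07). Slc2a3 (GLUT3), a high-affinity transporter, was at 12.6, 19.9, 11.9 and 14.9 CPM against 2.71, 4.31, 4.14 and 3.65 CPM, and also rose (log2 fold change 2.04, SE 0.20, FDR 1.9e-05). Slc2a6 (GLUT6) was low in controls, at 0.833, 1.24, 0.828 and 0.942 CPM, and was at 34.4, 26.5, 31.7 and 33.1 CPM in EAM hearts. The EAM hearts were close to one another and far above the controls (log2 fold change 5.07, SE 0.15, FDR 1.43e-08). Slc2a4 (GLUT4), which moves to the surface of muscle and fat cells in response to insulin, was at 159, 102, 251 and 152 CPM in EAM hearts and 545, 575, 555 and 608 CPM in controls. It fell in all 4 EAM hearts, least in replicate 3 and most in replicate 2 (log2 fold change -1.74, SE 0.23, FDR 0.000102).

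Of the hexokinases, which trap glucose in the cell by phosphorylation, Hk3 alone passed the test. Hk3 was at 96.7, 83.3, 93.7 and 102 CPM in D15 EAM hearts and at 1.98, 2.72, 2.90 and 2.12 CPM in controls (log2 fold change 5.31, SE 0.13, FDR 9.74e-09), with a narrow range among the EAM hearts. Hk2, the highest per length in control hearts, was at 251, 221, 293 and 343 CPM in EAM hearts and 331, 355, 346 and 366 CPM in controls. Here EAM replicate 4 lay within the range of the controls and the difference did not pass (log2 fold change -0.30, SE 0.13, FDR 0.0631). Hk1 was at 288 to 347 CPM in EAM hearts and 302 to 348 CPM in controls and the groups overlapped (log2 fold change -0.02, SE 0.09, FDR 0.872).

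In the upper part of glycolysis, from glucose 6-phosphate to the triose phosphates, Pfkp and Aldoc rose, and Pfkm, Aldoa and Tpi1 fell. Phosphofructokinase commits glucose to glycolysis, and its muscle form Pfkm was at 345, 224, 536 and 358 CPM in D15 EAM hearts and 1058, 1098, 1089 and 1124 CPM in controls. The platelet form Pfkp was at 181, 235, 163 and 239 CPM and 73.8, 69.5, 71.6 and 75.9 CPM. Pfkm was again highest in EAM replicate 3 and lowest in replicate 2 (log2 fold change -1.54, SE 0.22, FDR 0.000183), while Pfkp was lowest in replicate 3 (log2 fold change 1.53, SE 0.13, FDR 6.5e-06). The liver form Pfkl, at 181 to 238 CPM and 183 to 210.3 CPM, overlapped between the groups (log2 fold change 0.14, SE 0.09, FDR 0.197), as did Gpi1, the isomerase of glucose 6-phosphate, at 489 to 535 CPM and 521 to 575 CPM (log2 fold change -0.09, SE 0.08, FDR 0.302).

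Aldolase splits the 6-carbon sugar, and its members went opposite ways. Aldoa, the muscle aldolase, was at 1404, 1398, 1587 and 1435 CPM in D15 EAM hearts against 2039, 2326, 2293 and 2404 CPM in controls, a fall of less than 2-fold (log2 fold change -0.60, SE 0.11, FDR 0.000756). Aldoc, known as the brain form, was counted with 1238 reads over the 4 EAM hearts and 9 over the 4 controls, which gave 14.3, 13.3, 8.65 and 11.96 CPM and 0.0521, 0.118, 0.259 and 0.0589 CPM. The ratio of the summed reads was 97.5, with a 95% interval of 51.2 to 214 that covers counting error only (log2 fold change 6.58, SE 0.34, FDR 2.95e-07), and with any 1 EAM library left out Aldoc did not reach the read minimum and was not tested. Tpi1, which interconverts the triose phosphates, was at 582, 609, 593 and 565 CPM in EAM hearts and 804, 909, 848 and 891 CPM in controls. All 4 EAM hearts were below all 4 controls by less than 2-fold (log2 fold change -0.52, SE 0.08, FDR 0.000333).

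The 4 PFKFB enzymes make and remove fructose 2,6-bisphosphate, the activator of phosphofructokinase, and 2 of them rose and 2 fell. Pfkfb3, the strongly activating form induced by growth and inflammatory signals, was at 135, 159.9, 129.5 and 139 CPM in D15 EAM hearts and 17.97, 22.8, 25.3 and 29.4 CPM in controls. It was several-fold higher in every EAM heart (log2 fold change 2.60, SE 0.14, FDR 4.7e-07). Pfkfb4 was at 33.3, 29.1, 27.6 and 28.7 CPM and 7.66, 7.85, 7.46 and 6.95 CPM, with little spread in either group (log2 fold change 2.03, SE 0.09, FDR 9.88e-08). Pfkfb2, the form typical of heart, was at 18.2, 10.4, 24.6 and 16.1 CPM and 39.3, 51.8, 60.8 and 57.0 CPM and Pfkfb1, known from liver and muscle, at 4.37, 3.43, 10.4 and 3.82 CPM and 28.2, 23.3, 23.9 and 28.6 CPM. Both were lowest in EAM replicate 2 and highest, though still below the controls, in replicate 3 (Pfkfb2 log2 fold change -1.56, SE 0.24, FDR 0.000252, Pfkfb1 log2 fold change -2.21, SE 0.32, FDR 0.000188).

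In the lower part of glycolysis, from glyceraldehyde 3-phosphate to pyruvate, the isoenzymes of phosphoglycerate mutase and of enolase moved in opposite directions, while 3 genes did not pass. Pgam2, the muscle mutase, was at 193, 132, 282 and 182 CPM in D15 EAM hearts and 584, 604, 556 and 612 CPM in controls. Pgam1, the form of most other tissues, was at 153, 185, 130.1 and 144 CPM and 61.4, 68.9, 57.8 and 67.8 CPM. Pgam2 fell (log2 fold change -1.54, SE 0.20, FDR 8.6e-05) and Pgam1 rose (log2 fold change 1.30, SE 0.11, FDR 7.81e-06), and replicate 3 was the EAM heart nearest to the controls for both. Eno3, the muscle enolase, was at 383, 269.5, 658 and 390.4 CPM in EAM hearts and 1335, 1515, 1394 and 1595 CPM in controls. Eno1, the enolase of most cells, was at 433, 503, 319 and 446 CPM and 126, 143, 144 and 136 CPM, and reads of this gene may be split with near-copies in the genome, as described below. Eno3 fell (log2 fold change -1.74, SE 0.24, FDR 0.00014) and Eno1 rose (log2 fold change 1.67, SE 0.14, FDR 5.32e-06), again least in EAM replicate 3. Pgk1, which makes ATP from 1,3-bisphosphoglycerate, stood at 531 to 689 CPM and 560.0 to 602 CPM (log2 fold change 0.04, SE 0.10, FDR 0.762), and Pkm, which encodes the pyruvate kinases of muscle and of most dividing cells, at 1257 to 1467 CPM and 1232 to 1356 CPM (log2 fold change 0.10, SE 0.10, FDR 0.394), both with overlapping groups.

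**Figure D2:**
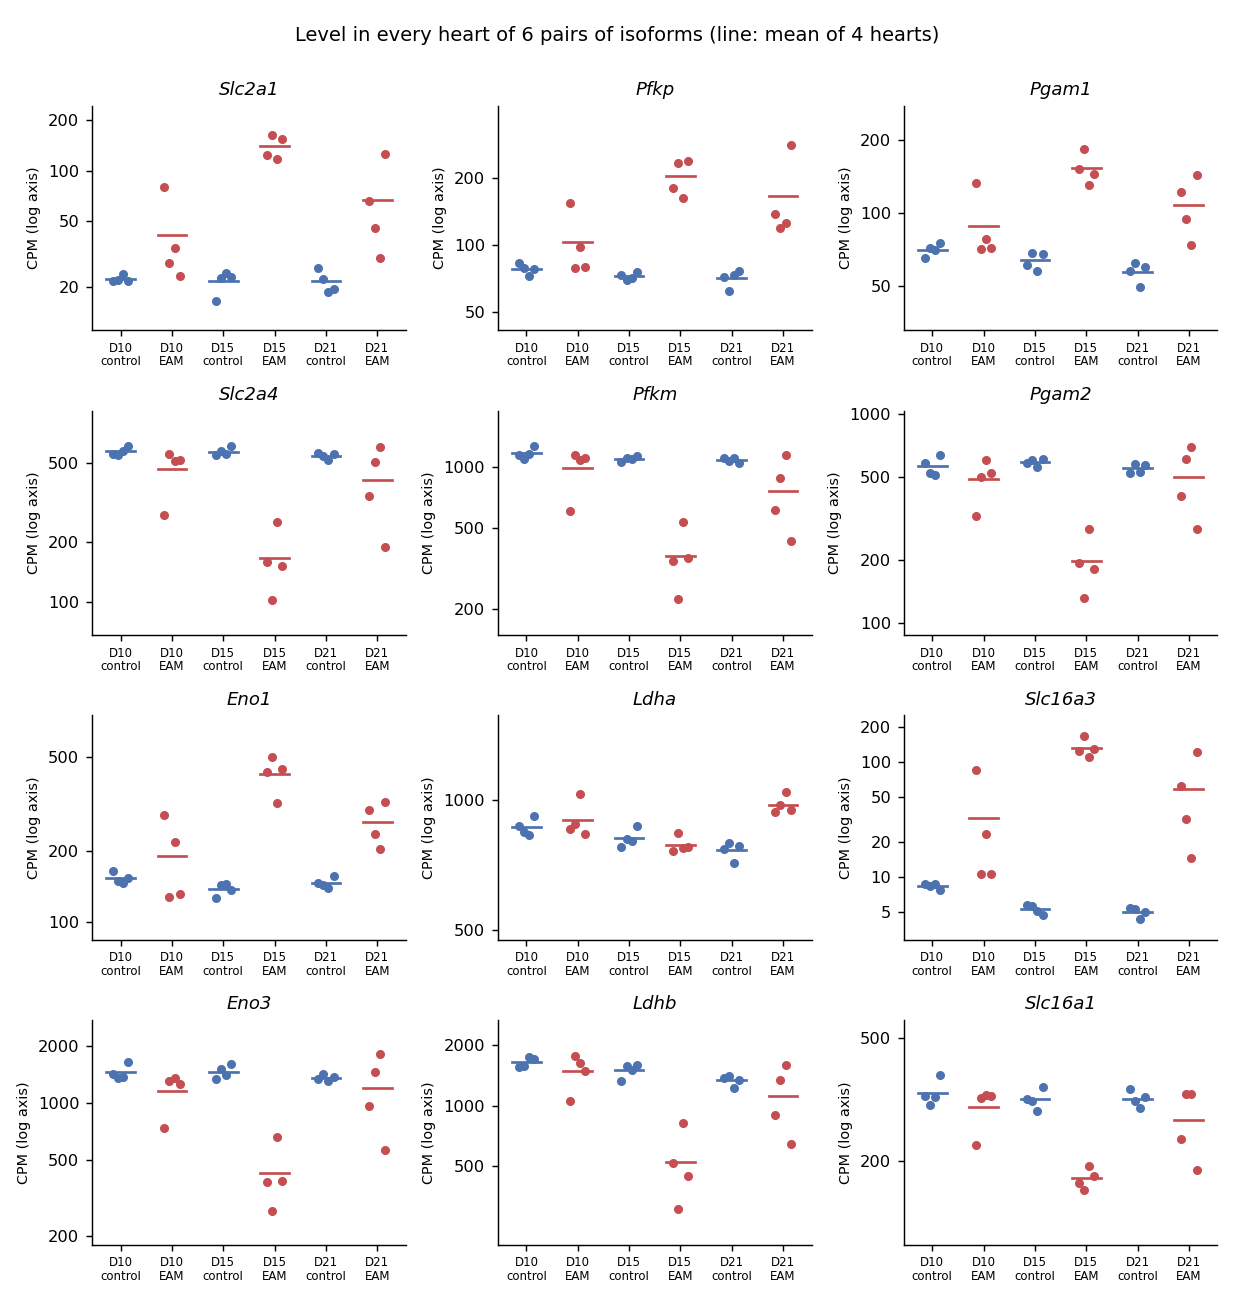
CPM in every heart (points, log y axis) for 6 pairs of genes of 1 family in the 6 groups of 4 hearts, controls in blue and EAM in red, with a line at the group mean. The D15 EAM hearts lie above all D15 controls for Slc2a1, Pfkp, Pgam1, Eno1 and Slc16a3 and below them for Slc2a4, Pfkm, Pgam2, Eno3, Ldhb and Slc16a1, and for Ldha the groups overlap.

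The 2 lactate carriers moved in opposite directions and, of the lactate dehydrogenase subunits, only Ldhb passed the test. Slc16a3 (MCT4), the low-affinity carrier that exports lactate from glycolytic cells, was at 125, 169, 111 and 129 CPM in D15 EAM hearts and 5.68, 5.61, 5.07 and 4.65 CPM in controls. It rose in every EAM heart (log2 fold change 4.70, SE 0.15, FDR 1.9e-08). Slc16a1 (MCT1), the carrier through which the heart takes up lactate, was at 169.8, 160.3, 193 and 179 CPM and 316, 312, 291 and 346 CPM and fell by less than 2-fold (log2 fold change -0.81, SE 0.08, FDR 2.1e-05). Ldhb was at 519.6, 307, 823 and 447 CPM in EAM hearts and 1335, 1574, 1510.1 and 1592 CPM in controls, and Ldha, the subunit typical of skeletal muscle and of glycolytic cells, at 760.0, 839, 774 and 775 CPM and 778, 812, 802 and 868 CPM. Ldhb fell in all 4 EAM hearts (log2 fold change -1.48, SE 0.26, FDR 0.000615), whereas the Ldha groups overlapped (log2 fold change -0.01, SE 0.08, FDR 0.905).

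All 5 genes of pyruvate entry fell, with a median log2 fold change of -1.41 against 0.02 over all genes. The mitochondrial pyruvate carrier is a dimer of Mpc1 and Mpc2. Mpc1 was at 45.3, 42.1, 65.4 and 41.8 CPM in D15 EAM hearts and 120.4, 116, 103 and 117 CPM in controls, and Mpc2 at 99.8, 76.6, 147 and 86.1 CPM and 284, 309, 287 and 321 CPM. For both subunits EAM replicate 3 was the highest EAM heart and still well below the lowest control (Mpc1 log2 fold change -1.19, SE 0.14, FDR 5.01e-05, Mpc2 log2 fold change -1.52, SE 0.18, FDR 5.65e-05). The PDH complex turns pyruvate into acetyl-CoA, and its E1 subunits Pdha1 and Pdhb were at 454, 325, 670.5 and 418 CPM and 230.5, 183, 344 and 214 CPM in EAM hearts. In controls they were at 1070.1, 1165, 1145 and 1189 CPM and 698, 727, 690.0 and 746 CPM. The E2 subunit Dlat was at 211, 184, 318 and 215 CPM against 601, 636, 626 and 662 CPM. All 3 subunits were highest in EAM replicate 3 and lowest in replicate 2 among the EAM hearts, with no overlap with the controls (Pdha1 log2 fold change -1.25, SE 0.20, FDR 0.000297, Pdhb log2 fold change -1.52, SE 0.18, FDR 4.78e-05, Dlat log2 fold change -1.41, SE 0.16, FDR 3.72e-05).

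Of the PDH kinases, which inactivate the complex by phosphorylation, Pdk1, Pdk2 and Pdk4 fell and Pdk3 rose. Pdk2 was at 191, 112, 308 and 167 CPM in D15 EAM hearts and 559, 643, 635 and 614 CPM in controls, and Pdk1, a known hypoxia-inducible gene, at 167, 122, 212 and 144 CPM and 363, 377, 359 and 365 CPM. Both fell without overlap (Pdk2 log2 fold change -1.62, SE 0.26, FDR 0.000344, Pdk1 log2 fold change -1.15, SE 0.15, FDR 0.000101). Pdk4, which is induced by fasting and fatty acids, was at 151, 190.0, 445 and 139 CPM in EAM hearts and 1421, 497, 807 and 706 CPM in controls. It varied among the D15 controls, with replicate 1 far above the other 3, and its fall (log2 fold change -1.86, SE 0.44, FDR 0.00351) was not called when EAM replicate 1 or 4 was left out (highest FDR 0.0139). Pdk3 was at 29.7, 28.3, 25.1 and 23.6 CPM and 7.08, 7.50, 6.83 and 4.83 CPM and rose in every EAM heart (log2 fold change 2.06, SE 0.14, FDR 1.73e-06).

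**Figure D3:**
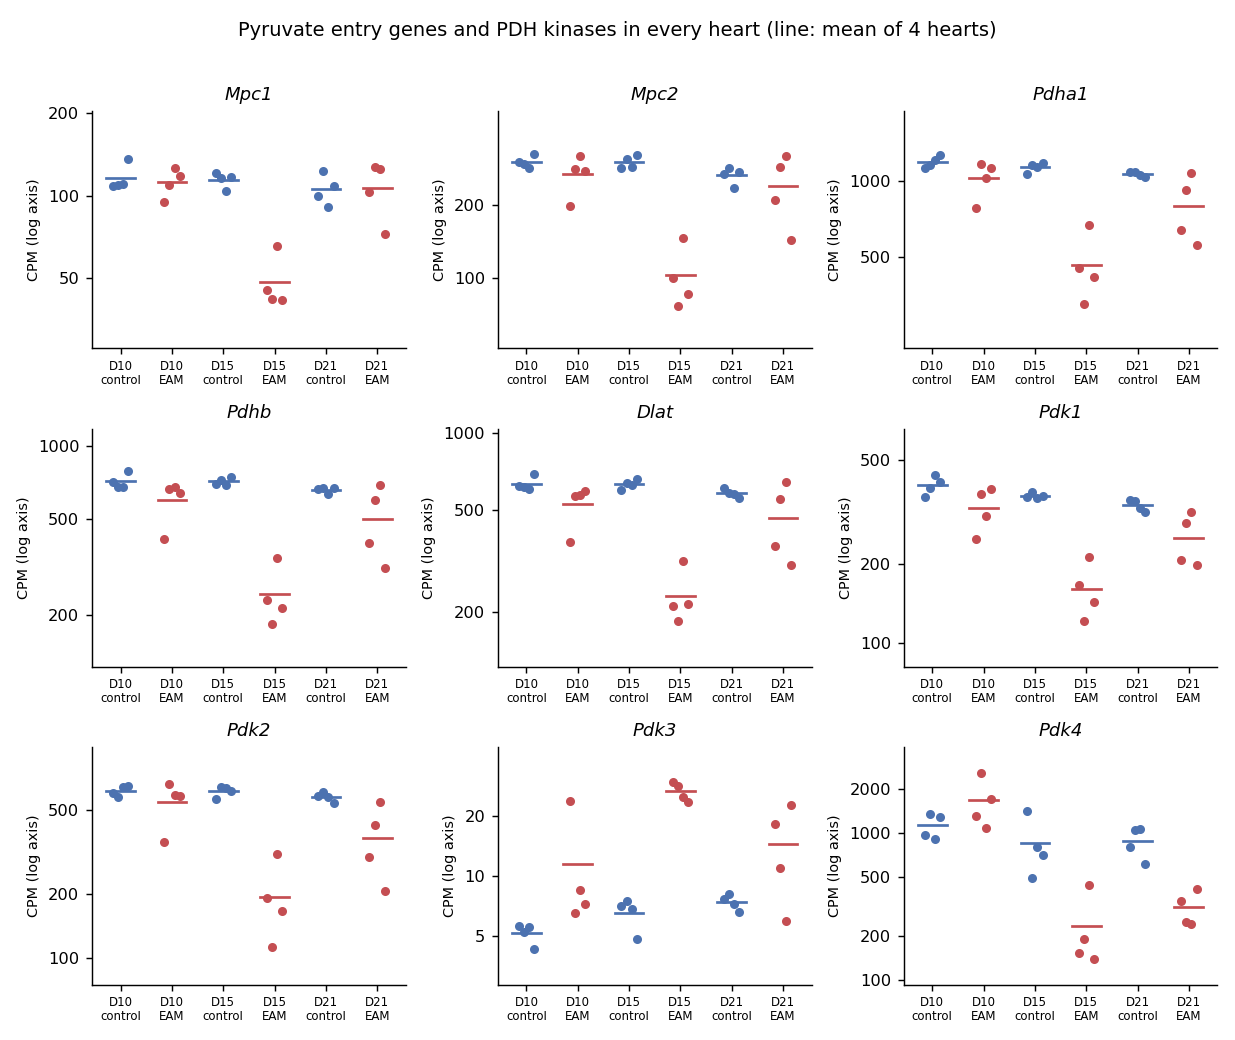
CPM in every heart (points, log y axis) for the 5 pyruvate entry genes and the 4 PDH kinases in the 6 groups of 4 hearts, controls in blue and EAM in red, with a line at the group mean. The D15 EAM hearts lie below all D15 controls in 8 of the 9 panels and above them for Pdk3.

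The 2 pentose phosphate genes and Hif1a rose. G6pdx, the NADPH-producing entry enzyme of the pathway, was at 80.8, 86.8, 68.7 and 75.4 CPM in D15 EAM hearts and 15.8, 15.6, 15.3 and 15.0 CPM in controls, and Pgd, the next NADPH-producing enzyme, at 189, 222, 158 and 193 CPM and 42.4, 47.9, 48.0 and 46.5 CPM. Both groups were tight and far apart (G6pdx log2 fold change 2.38, SE 0.08, FDR 2.63e-08, Pgd log2 fold change 2.08, SE 0.11, FDR 2.88e-07). G6pdx overlaps Ikbkg on the opposite strand, and the sources used here do not say whether the counting used strand, which also bears on Hk3, Pfkp, Pfkm, Pfkfb1, Pfkfb2, Gapdh, Aldoa, Tpi1 and Pdha1, each of which overlaps another protein-coding gene on the opposite strand. Over all hearts Ikbkg had a mean of 65.2 CPM against 34.1 CPM for G6pdx, Pitrm1 69.8 CPM against 116 CPM for Pfkp, and Iffo1 15.95 CPM against 94.3 CPM for Gapdh. Hif1a, the oxygen-regulated subunit of HIF-1, is controlled largely at the level of its protein, and its transcript was at 531, 505, 437 and 536 CPM in EAM hearts and 141, 128, 132 and 120.3 CPM in controls (log2 fold change 1.99, SE 0.10, FDR 1.93e-07).

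These movements ran together with the marker genes of other cell types, and the part of cell composition in them was not tested. The leukocyte marker Ptprc, which encodes CD45, was at 305, 256, 244 and 299.6 CPM in D15 EAM hearts and 16.8, 16.5, 17.8 and 20.7 CPM in controls (log2 fold change 3.98, SE 0.12, FDR 1.43e-08). Myh6, the main cardiac myosin heavy chain gene, was at 3051, 1768, 8073 and 3931 CPM and 9484, 10826, 12327 and 12187 CPM, with replicate 3 highest and replicate 2 lowest among the EAM hearts, the order also seen for Pfkm, Pgam2, Eno3 and the PDH subunits (log2 fold change -1.38, SE 0.41, FDR 0.0121). All 5 leukocyte genes, all 10 neutrophil genes, all 10 T cell genes and 14 of 15 monocyte and macrophage genes were called higher at D15, and 9 of 13 cardiomyocyte genes were called lower, where 18.1% of all genes were called higher and 12.9% lower. The 7 endothelial genes summed to 765 to 839 CPM in D15 EAM hearts and 1116 to 1453 CPM in controls, the 6 genes of dividing cells to 149 to 241 CPM and 21.2 to 34.7 CPM, and the 8 fibroblast genes to 9417 to 17429 CPM and 3567 to 4388 CPM, each without overlap. The 10 skeletal muscle genes summed to 7.29 to 10.2 CPM in D15 EAM hearts and 4.89 to 14.2 CPM in controls, with Myh4 at 0 in the EAM hearts, and 2 of the 6 that could be tested were called higher.

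To set the isoforms of a family side by side, each gene's CPM was divided by its exon length and expressed as a share of its family, as a description with no test of its own. In the enolases, Eno1 made up 2.96% ± 0.229 (SD, n = 4) of the level per length in D15 controls and 26.2% ± 9.86 (SD, n = 4) in D15 EAM hearts, while the summed level of the family went from 865 ± 68.0 to 324 ± 80.6 CPM per kb. The share of Eno1 in its family was thus larger, although by this measure Eno3 was still the higher form in every heart. The divisor merges all annotated exons of a gene and was 5379 bases for Eno1 and 1739 for Eno3. The order of Eno1 and Eno3 in D15 EAM hearts therefore depends on the divisor. By CPM alone, with no division by length, Eno1 was above Eno3 in replicates 1, 2 and 4 of D15 EAM, and its mean share was 51.0%. Pgam1 went from 4.40% ± 0.186 to 26.0% ± 8.59 of the mutases, Ldha from 20.5% ± 0.850 to 43.3% ± 10.6 of the lactate dehydrogenases with Ldha itself not past the test, and Slc16a3 from 1.37% ± 0.177 to 38.66% ± 5.95 of the pair of lactate carriers. Slc2a1 went from 3.61% ± 0.516 to 40.9% ± 10.5 of the 4 glucose transporters and Slc2a4 from 95.9% ± 0.573 to 47.0% ± 11.5. Hk3 went from 0.672% ± 0.117 to 23.4% ± 1.64 of the hexokinases, whose summed level was 98.1 CPM per kb in controls and 109 CPM per kb in EAM hearts. Pfkfb3 made up 17.1% ± 1.93 of the PFKFB level in controls and 65.4% ± 5.32 in EAM hearts (all SD, n = 4). For these 7 genes each D15 EAM heart had a higher share than each control, and their mean shares in D21 EAM hearts lay between those of D21 controls and D15 EAM hearts with a wide spread, for instance 8.27% ± 5.38 for Eno1 and 16.1% ± 14.2 for Slc16a3.

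**Figure D4:**
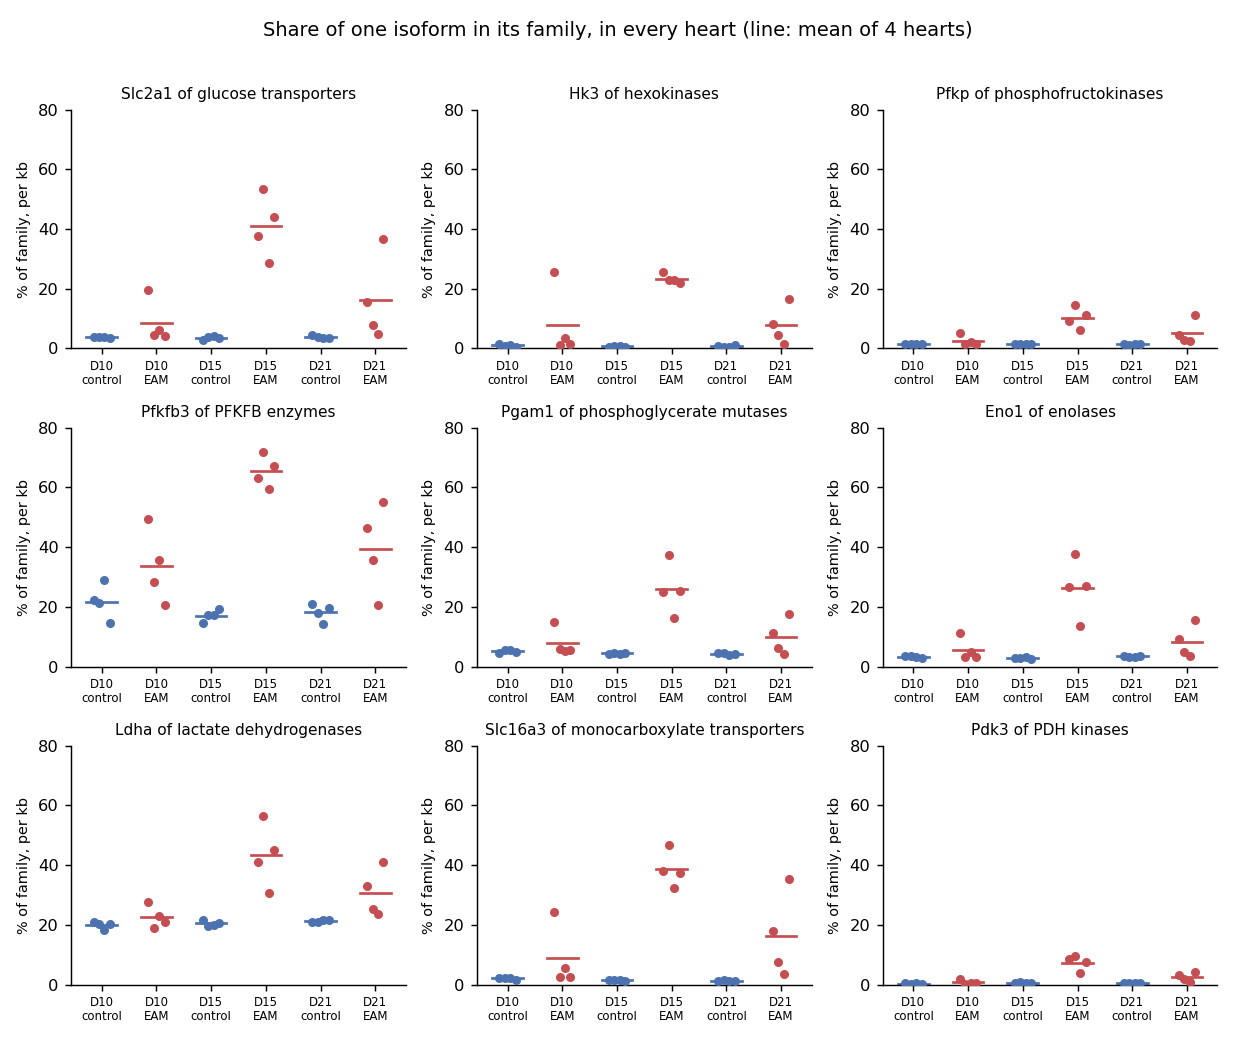
Share of 1 gene in the summed CPM per kb of its family (y axis, percent) in every heart of the 6 groups of 4, controls in blue and EAM in red, with a line at the group mean. In all 9 panels the D15 EAM hearts lie above the D15 controls, with Pfkfb3 at a mean of 65.4%, and replicates 1 and 4 are the highest EAM hearts at D21.

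Gapdh, which oxidizes glyceraldehyde 3-phosphate and is often used as a reference gene, could not be read reliably. Its own count ranged from 7.97 to 256 CPM over the 24 hearts with no separation of groups, and its D15 difference did not pass (log2 fold change -0.90, SE 0.93, FDR 0.399). The annotation holds near-copies of Gapdh, and the 84 in the count table, nearly all annotated as pseudogenes, took 282 to 619 CPM, more than Gapdh itself in every heart, so its reads are uncertain. Summed with its near-copies, a step taken after the values were seen, Gapdh was at 359 to 427 CPM in D15 EAM hearts and 532 to 689 CPM in D15 controls, so that all 4 EAM hearts were lower, as were 35.9% of all genes at that time point. At D10 and D21 the sums of the groups overlapped. Near-copies of Eno1 took 25.1 to 195 CPM, and the sum with Eno1 was 424 to 641 CPM in D15 EAM hearts against 152 to 171 CPM in controls. For Mpc1 the processed copy Mpc1-ps took 39.4 to 136 CPM, and the sum was 81.5 to 141 CPM in D15 EAM hearts against 216 to 252 CPM in controls, so both kept their direction. The study set reads that map to several loci apart, so these sums do not recover such reads. Near-copies in the count table were also found for Gpi1, Pfkfb2, Pgk1, Pgam1 and Ldhb. Those of Tpi1, Pkm, Ldha and Pdhb were in the annotation only.

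**Figure D5:**
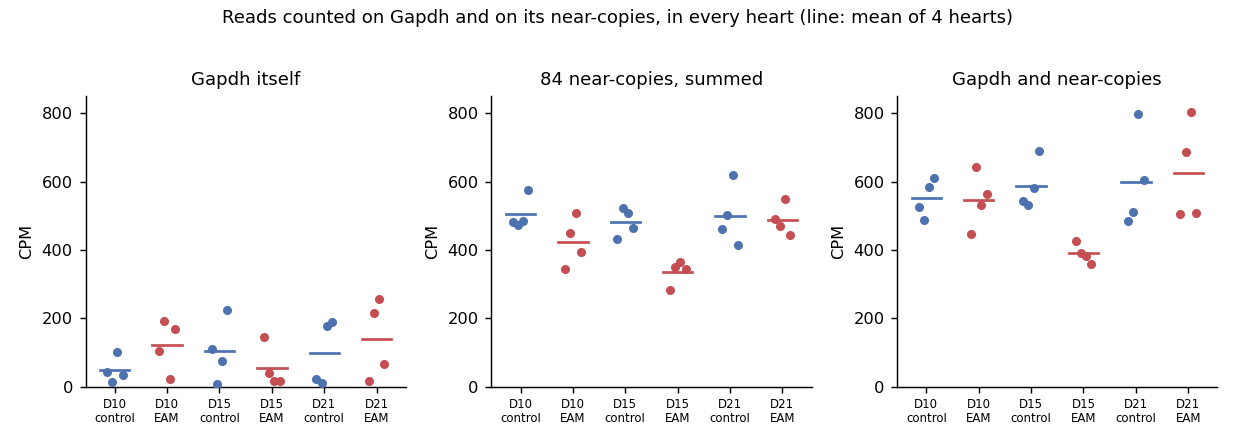
CPM in every heart of the 6 groups of 4 for Gapdh itself, for its 84 near-copies summed and for all of them together (linear y axis from 0, line at the group mean, controls in blue and EAM in red). Gapdh alone scatters between 7.97 and 256 CPM in all groups, and the sum is lower in the 4 D15 EAM hearts than in the 4 D15 controls.

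At D10, 0 of the 40 members tested passed an FDR of 0.01 with edgeR's quasi-likelihood test, its likelihood ratio test, DESeq2 or limma-voom. Of all genes 0% were higher and 0% lower with the quasi-likelihood test and with limma-voom, 0.353% and 0.0133% with the likelihood ratio test, and 0.413% and 0.0865% with DESeq2. At an unadjusted p under 0.05, 7 members were higher and 1 lower, where 9.71% and 5.54% of all genes were (lowest FDR 0.328). The members with the 3 largest log2 fold changes, Hk3, Slc2a6 and Slc16a3, were highest in EAM replicate 1 by a wide margin. Hk3 was at 97.9, 4.64, 13.2 and 5.80 CPM in D10 EAM hearts and 5.02, 3.69, 4.44 and 2.44 CPM in controls, and Slc2a6 at 36.6, 2.21, 8.68 and 3.59 CPM and 2.91, 2.71, 1.46 and 1.52 CPM. For both genes replicate 1 reached the level of the D15 EAM hearts and replicate 2 was within the range of the controls. Leaving out replicate 1 moved the log2 fold change of Hk3 from 2.95 to 0.999, for Slc2a6 from 2.56 to 1.14 and for Slc2a1 from 0.88 to 0.34. The heart of EAM replicate 1 was also the lowest of its group for muscle isoforms, with Pfkm at 608, 1135, 1079 and 1105 CPM in EAM hearts and 1146, 1095, 1151 and 1255 CPM in controls, and Slc2a4 at 275, 555, 514 and 516 CPM and 556, 549, 574 and 611 CPM. In the other 3 EAM hearts these 2 genes overlapped with the controls or lay just below them.

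For Slc16a3 and Pdk3 every D10 EAM heart was above every D10 control, replicate 1 included or not, and for Eno3, Pdhb and Dlat every EAM heart was below, where 4.41% of all genes were above and 3.75% below without overlap. Slc16a3 was at 86.0, 10.6, 23.5 and 10.7 CPM in EAM hearts and 8.79, 8.45, 8.65 and 7.66 CPM in controls (log2 fold change 1.96, SE 0.65, FDR 0.328). Without replicate 1 its log2 fold change was 0.82 (FDR 0.411). Pdk3 was at 23.9, 6.51, 8.52 and 7.28 CPM and 5.65, 5.28, 5.56 and 4.29 CPM (log2 fold change 1.15, SE 0.41, FDR 0.328), and without replicate 1 its log2 fold change was 0.50 (FDR 0.384). With all 12 control hearts as the reference, 4 members were called, all higher, namely Slc2a6, Hk3, Pfkfb3 and Slc16a3, where 4.07% of all genes were called higher and 0.315% lower. This reference mixes time points, and Slc16a3 itself was lower in D21 than in D10 controls. Aldoc was not tested at D10, where 115 reads in EAM hearts and 17 in controls gave a ratio of 6.13 (95% counting interval 3.67 to 10.9), with 4.15, 0.227, 0.668 and 0.264 CPM in EAM hearts and 0.342, 0.102, 0.337 and 0.198 CPM in controls, so that replicate 1 held most of the reads.

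At D21 the EAM hearts ranged widely, and few members passed. Aldoc and Slc16a3 were called higher and Pdk4 lower, where 4.13% of all genes were called higher and 1.16% lower, and Eno1 and Pfkl passed the FDR at less than 2-fold, which made 4 higher and 1 lower at any fold (4.71% and 3.1% of all genes). At an unadjusted p under 0.05, 20 members were higher and 4 lower (25.2% and 21.2% of all genes), and the median log2 fold change of the 41 was 0.31 against -0.01 over all genes. The 4 EAM hearts differed in leukocyte markers, with summed levels of 941, 519, 268 and 1147 CPM in replicates 1 to 4, and in cardiomyocyte markers, with 31532, 42899, 55990 and 25912 CPM. Sums of other cell types also lay apart from the D21 controls. Fibroblast genes were at 6219 to 15445 against 3995 to 5144 CPM and endothelial genes at 797 to 1294 against 1328 to 1587 CPM. Adipocyte genes were at 0.221 to 7.63 against 19.3 to 49.7 CPM. The part of cell composition was not tested. Slc16a3 was at 62.3, 32.3, 14.7 and 123 CPM in D21 EAM hearts and 5.39, 5.33, 4.29 and 5.02 CPM in controls, and Aldoc at 4.83, 3.65, 0.869 and 10.5 CPM and 0.305, 0.336, 0.263 and 0.256 CPM. Both rose in every EAM heart, most in replicate 4 and least in replicate 3, the order of the leukocyte sum (Slc16a3 log2 fold change 3.57, SE 0.61, FDR 0.00695, Aldoc log2 fold change 4.11, SE 0.72, FDR 0.00723). Aldoc had 24 reads over the 4 D21 controls, with at most 7 in any of them, and reached the read minimum only through the EAM hearts. Eno1 was at 298, 237, 203 and 323 CPM and 146, 143, 139 and 156 CPM (log2 fold change 0.89, SE 0.16, FDR 0.0075), and Pfkl at 236, 240.3, 282 and 249 CPM and 187, 188, 183 and 189 CPM (log2 fold change 0.45, SE 0.08, FDR 0.00722). Pfkl was highest in replicate 3, unlike Slc16a3, Aldoc and Eno1.

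Pdk4 was the one member called lower at D21, at 343, 246, 238 and 417 CPM in EAM hearts and 801, 1055, 1064 and 614 CPM in controls. The groups did not overlap (log2 fold change -1.48, SE 0.25, FDR 0.00696), and unlike the muscle isoforms Pdk4 was not highest in replicate 3, the heart with the most cardiomyocyte marker RNA. Its levels in replicates 2 and 3 were close to each other. Eno3 in the same hearts was at 965, 1456, 1813 and 568 CPM against 1343, 1417, 1309 and 1366 CPM in controls, so that replicates 2 and 3 were above every control and replicates 1 and 4 below (log2 fold change -0.17, SE 0.30, FDR 0.68). Pgam2, at 406, 611, 691 and 281 CPM and 524, 577, 530.4 and 572 CPM, and Ldhb, at 905, 1350.3, 1599 and 646 CPM and 1383, 1409.8, 1220.4 and 1342 CPM, had replicate 3 as the highest and replicate 4 as the lowest EAM heart as well. Neither passed the test (Pgam2 log2 fold change -0.14, SE 0.24, FDR 0.682, Ldhb log2 fold change -0.24, SE 0.25, FDR 0.473). Altogether 18 members were higher in all 4 D21 EAM hearts than in all 4 controls and 2 were lower (17.8% and 18.7% of all genes), the latter being Pfkfb1 and Pdk4.

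The D21 calls depended on single hearts and on the tool. All 3 were lost with limma-voom (0.524% of all genes called higher and 0.884% lower), whereas 13 members were called with the likelihood ratio test (8.88% and 2.7%) and with DESeq2 (8.93% and 2.42%). Deviations of same-numbered EAM and control hearts correlated at 0.101 to 0.307 at D21, and differently numbered hearts were not compared. Whether the numbers mark pairs is thus not settled. In a fit with a replicate block, run as an alternative, Slc16a3 (log2 fold change 3.17, FDR 0.00936), Aldoc (3.80, FDR 0.00766) and Eno1 (0.86, FDR 0.00982) still passed, Slc2a6 passed in addition (2.90, FDR 0.00872), and Pdk4 (FDR 0.0207) and Pfkl (FDR 0.0235) did not. With any 1 control or EAM replicate 1 or 2 left out, 0 members were called, and of all genes at most 0.053% were called higher and 0.212% lower. Without EAM replicate 3, 15 members were called, Slc16a3 and Pdk4 among them, and the gains were Slc2a1, Slc2a3, Slc2a6, Hk3, Pfkp, Pfkfb2, Pfkfb3, Pfkfb4, Pgam1, Pdk3, G6pdx, Pgd and Hif1a. In that setting 9.78% of all genes were called higher and 3.5% lower, so that the number of calls rose over all genes as well. Without EAM replicate 4, 2 members were called (1.98% and 0.903% of all genes).

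Whether the EAM effect itself moved from 1 time point to the next was tested by a contrast over all 24 hearts. From D10 to D15 the effect differed for 23 of 41 members at an FDR of 0.01, 8 in the higher and 15 in the lower direction, where 9.37% and 16.7% of all genes did. The genes that moved up were Slc2a1 (log2 difference 1.80, FDR 0.00719), Slc2a3 (1.84, FDR 0.00196), Pfkfb3 (1.88, FDR 0.00355), Pgam1 (0.93, FDR 0.00834), Eno1 (1.32, FDR 0.00213), G6pdx (1.60, FDR 0.00361), Pgd (1.40, FDR 0.00495) and Hif1a (1.49, FDR 0.00337). All 5 pyruvate entry genes moved down, with log2 differences of -1.39 to -1.08, together with Pdk1, Pdk2, Ldhb, Slc2a4, Pfkm, Aldoa, Pfkfb1, Pgam2 and Eno3. Of the members that passed, Pdk4 had the largest log2 difference (-2.46, FDR 0.00213). Its D10 level was 1317, 2593, 1096 and 1726 CPM in EAM hearts and 971, 1363, 917 and 1293 CPM in controls, with overlapping groups and a D10 log2 fold change of 0.55, so that the sign of its EAM effect differed between D10 and D15. Without D10 EAM replicate 1 the number of members was 32 (19.1% of all genes higher and 22.4% lower). It was 12 to 15 without D10 control replicate 1 or 2, D10 EAM replicate 2, 3 or 4, or D15 EAM replicate 2 or 4, where 5.02% to 5.82% of all genes were higher and 10.3% to 12.2% lower.

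From D15 to D21 the EAM effect differed for 8 members, all upward, where 8.47% of all genes moved up and 3.66% down. None of these 8 passed the test between EAM and control hearts at D21 itself. They were Aldoa (0.78, FDR 0.00331), Tpi1 (0.85, FDR 0.00116), Pgam2 (1.43, FDR 0.00426), Eno3 (1.60, FDR 0.00569), Mpc1 (1.25, FDR 0.00151), Mpc2 (1.41, FDR 0.0025), Pdhb (1.15, FDR 0.00708) and Dlat (1.12, FDR 0.00559), each given as a log2 difference. Mpc1, for instance, was at 103, 127, 125 and 72.5 CPM in D21 EAM hearts and 99.4, 123, 91.2 and 108 CPM in D21 controls, with both groups overlapping. Aldoa was at 2106, 2377, 2801 and 1964 CPM and 2145, 2174, 1965 and 2125 CPM and Tpi1 at 868, 982, 1156 and 786 CPM and 764, 797, 735 and 796 CPM, so that EAM replicates 2 and 3 were above all controls for both genes and replicate 1 also for Tpi1. The difference of Pdk4 between D15 and D21 was 0.39 (FDR 0.584) and did not pass. With the replicate block only Mpc1 of the 8 passed, and the shares of all genes fell to 0.919% and 0.956%. The number was 4 or 5 when replicate 2 or 4 of the D15 controls, replicate 1 or 4 of D15 EAM, replicate 1, 3 or 4 of the D21 controls, or replicate 2 or 3 of D21 EAM was left out, where 3.9% to 5.68% of all genes moved up and 1.74% to 2.7% down. It was 15 without D15 EAM replicate 3 (12.7% and 4.14% of all genes) and 23 without D21 EAM replicate 4 (2612 of 16283 genes higher and 1359 lower). The comparison with D21 carries the library code of the D21 EAM hearts with it.

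The wider pathway was followed in 86 further genes listed by function, of which 78 were tested at D15. Of these, 11 were called higher and 23 lower (21 and 35 at any fold), where 18.1% of all genes were called higher and 12.9% lower (33.2% and 31.1% at any fold), and their median log2 fold change was -0.36. The same 18.1% and 12.9% are the background of the smaller lists that follow. Among the other genes of the PDH complex and pyruvate use, 6 of 9 were called lower and 0 higher, with Gpt, an alanine aminotransferase that makes pyruvate from alanine, at 11.4, 8.48, 25.1 and 9.99 CPM in EAM hearts and 54.6, 52.7, 53.2 and 63.3 CPM in controls (log2 fold change -1.99, SE 0.30, FDR 0.000245). Glycogen genes were called lower in 7 of 15 and higher in 1. Ppp1r3c, which targets protein phosphatase 1 to glycogen, was at 83.7, 52.4, 105 and 80.9 CPM and 300.05, 298, 270.4 and 291 CPM and fell in all 4 EAM hearts (log2 fold change -1.81, SE 0.18, FDR 1.78e-05), and Phkg1, the catalytic subunit of muscle phosphorylase kinase, also fell (log2 fold change -1.74, SE 0.36, FDR 0.00167). Other genes named for the size of their fall were the glucose transporter Slc2a12 (log2 fold change -2.17, SE 0.25, FDR 4.21e-05) and the lactate carrier Slc16a8 (log2 fold change -2.17, SE 0.28, FDR 9.35e-05).

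Among the further genes that rose, Emb, which encodes the embigin chaperone of monocarboxylate transporters, was at 200.4, 236, 139.9 and 156 CPM in D15 EAM hearts and 5.83, 6.38, 5.90 and 5.18 CPM in controls. All 4 EAM hearts were far above the controls (log2 fold change 5.01, SE 0.19, FDR 4.45e-08). Eno2, the enolase typical of neurons, varied among the EAM hearts, at 13.4, 31.5, 8.44 and 18.3 CPM against 3.65, 4.01, 5.54 and 3.94 CPM (log2 fold change 2.10, SE 0.38, FDR 0.000705). Tkt, the transketolase of the pentose phosphate pathway, was at 137, 156, 110.2 and 129.5 CPM and 38.5, 43.2, 46.6 and 36.3 CPM (log2 fold change 1.73, SE 0.12, FDR 2.02e-06), and Pgm2, a phosphopentomutase, rose as well (log2 fold change 1.62, SE 0.12, FDR 2.64e-06). The carbonic anhydrases Car9 and Car12 are known hypoxia-responsive genes, and Car9 was at 2.66, 6.27, 2.11 and 2.93 CPM and 0.521, 1.24, 1.24 and 0.412 CPM (log2 fold change 2.07, SE 0.45, FDR 0.00241). Car12 was counted with 422 reads in EAM hearts and 2 in controls, a ratio of 149.5 with a 95% counting interval of 41.1 to 1239, and it reached the read minimum only through the EAM hearts. Of the 13 listed hypoxia-responsive genes outside glycolysis, 3 were called higher, Car12 included, and 2 lower, and of 9 genes of the HIF system 0 were called higher and 2 lower, with a median log2 fold change of 0.36 and -0.12, respectively. Both lists are small, and 18.1% of all genes were called higher and 12.9% lower.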

How the data were processed

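RNA was sequenced from 24 hearts (4 EAM and 4 control hearts at each of D10, D15 and D21) as 75 bp paired-end reads with a directional library kit. The authors aligned the reads to GRCm38 with HISAT2 2.0.4, removed duplicates with Picard and counted reads per Ensembl gene with featureCounts, and they deposited raw counts. The sources used here do not give the strand setting of the counting. No 2 libraries were identical, and totals were 15814863 to 24980864 counts. Groups were taken from the sample titles, and p-values measure the spread between these hearts.

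A gene was tested where 4 or more of the samples compared had 10 or more reads. Tests used edgeR 4.0.16 (TMM normalization, quasi-likelihood test, Benjamini-Hochberg adjustment over all genes tested) in R 4.3.3, separately at each time point. Differences between time points were contrasts of a fit to all 24 hearts. SE is the size of the log2 fold change divided by the square root of the test's F statistic. The code was tested on simulated data. Levels per kb and near-copies (blastn 2.17.0, at least 95% identity) used exon lengths, with all exons of a gene merged, and transcripts of a GENCODE annotation of GRCm38. Alternatives were an FDR of 0.05, edgeR's likelihood ratio test, DESeq2 1.42.0, limma-voom (limma 3.58.1), other scalings, no filter, other control sets, a replicate block, each library left out and, added after the data were seen, a newer form of the quasi-likelihood test. The members and gene lists were chosen with earlier results of these data known.

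Values per heart are given for members past the FDR of 0.01 and 2-fold at any time point, for those whose EAM effect differed between time points and for the member of each role with the highest level per length. Other members are given by fold or range, and at most 6 further pathway genes of at least 1 CPM per direction by fold, of which a gene is not reported here. Replicate numbers come from the sample titles, which do not say what they mark. The deviations of same-numbered EAM and control hearts from their group means correlated at 0.101, 0.171, 0.307 and 0.248 at D21, and not in every pair at D10 (0.365, -0.0785, -0.0933 and 0.407) or D15 (0.0427, -0.0886, -0.0309 and -0.105). Correlations of differently numbered hearts were not taken, so these values do not settle whether the numbers mark pairs. The main tests did not use the numbers, and the replicate block was run only as an alternative.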

Additional observations from a re-analysis of the deposited data

Results flagged for a closer look

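In 26 of 246 groups of 4 hearts examined, 1 heart lay far from the other 3 for a member gene by Dixon's ratio at the 95% level, where chance gives about 5% of groups. D10 EAM replicate 1, the heart with the high leukocyte marker sum, was that heart in 14 of them. Among the D10 EAM hearts it had the highest level in CPM for Slc2a3 13.9, Hk3 97.9, Aldoc 4.15, Pfkfb4 25.9, Pgam1 133, Pdk3 23.9 and Hif1a 321, and the lowest for Slc2a4 275, Hk1 295, Pfkm 608, Eno3 735, Slc16a1 225, Pdhb 414 and Dlat 375. The other groups were single genes, with the level of the heart in CPM, namely Slc2a1 in D10 control replicate 3 (highest, 23.8), Slc2a3 in D21 control replicate 1 (highest, 4.93), Gpi1 in D21 EAM replicate 3 (highest, 693), Pfkp in D21 EAM replicate 4 (highest, 282), Pfkfb1 in D15 EAM replicate 3 (highest, 10.4), Pgk1 in D15 EAM replicate 2 (highest, 689), Pkm in D21 control replicate 2 (lowest, 1184), Mpc1 in D10 control replicate 4 (highest, 135), Mpc1 in D15 EAM replicate 3 (highest, 65.4), Pdhb in D21 control replicate 3 (lowest, 631), Pdk4 in D15 EAM replicate 3 (highest, 445) and Pgd in D21 control replicate 3 (lowest, 46.2).

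The EAM effect differed between time points by the contrast over 24 hearts for the following members, with log2 differences of the EAM effects. From D10 to D15 the values were Slc2a1 1.80, Slc2a3 1.84, Slc2a4 -1.48, Pfkm -1.34, Aldoa -0.57, Pfkfb1 -1.93, Pfkfb3 1.88, Pgam1 0.93, Pgam2 -1.37, Eno1 1.32, Eno3 -1.46, Ldhb -1.37, Mpc1 -1.18, Mpc2 -1.39, Pdha1 -1.08, Pdhb -1.31, Dlat -1.18, Pdk1 -0.89, Pdk2 -1.48, Pdk4 -2.46, G6pdx 1.60, Pgd 1.40 and Hif1a 1.49. From D15 to D21 they were Aldoa 0.78, Tpi1 0.85, Pgam2 1.43, Eno3 1.60, Mpc1 1.25, Mpc2 1.41, Pdhb 1.15 and Dlat 1.12, and at D21 the library code of the EAM hearts cannot be told apart from EAM.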

How the results depend on the processing

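The 30 members called at D15 were called under every alternative that left out no heart, and leaving out 1 heart gave 28 to 30 (at any fold 31 to 33). With any D15 EAM heart out Aldoc fell below the read minimum, and Pdk4 was lost without EAM replicate 1 or 4. At D10 all 12 controls as reference gave 4 calls and 8 at any fold (8.41% of all genes higher and 3.94% lower). The D21 calls (3 in the report) were 13 at an FDR of 0.05, with the likelihood ratio test, with DESeq2, with 12 controls and in a fit of all 24 samples, 5 without the filter, 0 with limma-voom and 0 to 15 with 1 heart left out. At any fold (5 in the report) they were 18, 17, 19, 26 and 19 in the same order, 0 with limma-voom and 0 to 18 with 1 heart left out. The shares of all genes moved with these counts, from 4.13% called higher and 1.16% lower to 9.3% and 2.87% at an FDR of 0.05, 8.88% and 2.7% with the likelihood ratio test, 8.93% and 2.42% with DESeq2, 10.1% and 2.26% with 12 controls, 9.28% and 2.73% with 24 samples and 0.524% and 0.884% with limma-voom. At any fold they went from 4.71% and 3.1% to between 13.5% and 8.17% (likelihood ratio test) and 25.1% and 18.2% (12 controls) in the settings that gave 13 calls. With limma-voom they were 0.707% and 1.78% at any fold. Without the filter they were 3.97% and 1.86% at any fold, with 3.54% called higher and 0.832% lower. The cause was not tested.

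The D15 minus D10 difference (23 members) ranged from 12 to 32 with 1 heart left out. The D21 minus D15 difference (8 members) was 22 at an FDR of 0.05, 15 with DESeq2, 1 with the replicate block and 4 to 23 with 1 heart left out, where the shares of all genes were 8.47% higher and 3.66% lower in the report, 17.8% and 10.4% at an FDR of 0.05, 12.8% and 6.16% with DESeq2 and 0.919% and 0.956% with the block. Between D15 and D10 controls 2 members passed at an FDR of 0.05 (0.214% of all genes higher and 0.697% lower) and 3 with DESeq2. Between D21 and D10 controls (1 member) 6 passed in either case (5.13% and 3.57% of all genes at an FDR of 0.05), 0 with the replicate block and 0 to 1 with 1 heart left out. Beside these counts and the D21 values in the report, the replicate block moved no count of members by over 1.5 times.

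Signs turned only for values that passed no threshold. The log2 fold change of Hk1 at D10 became 0.011 with DESeq2 and RLE, 0.00016 with limma-voom, 0.051 with total counts, 0.009975 without the filter, 0.039 with 12 controls and 0.013 with 24 samples. With 12 controls at D10, Pfkl became 0.030, Aldoa 0.008357 and Mpc1 0.009204, and Mpc1 at D21 -0.037. Scaling by total counts shifted the median of all genes by 0.149 at D15, 0.147 for D15 minus D10 and -0.152 for D21 minus D15, and gave 0.13 for Hk1, 0.059 for Gpi1 and 0.14 for Ldha at D15. For D15 minus D10 it gave 0.083 for Hk1, 0.051 for Hk2, 0.055 for Pgk1 and 0.040 for Ldha, and for D21 minus D15 -0.009148 for Hk1 and -0.10 for Hk2. Pgk1 at D15 was -0.002007 with 24 samples. With 1 heart left out, ranges that crossed 0 were, at D10, -0.039 to 0.069 for Hk1, -0.022 to 0.075 for Gpi1, -0.13 to 0.028 for Aldoa, -0.007811 to 0.077 for Ldha and -0.11 to 0.025 for Mpc1. At D15 they were -0.051 to 0.060 for Hk1, -0.030 to 0.10 for Pgk1 and -0.026 to 0.033 for Ldha. At D21 they were -0.33 to 0.056 for Pgam2, -0.43 to 0.062 for Eno3, -0.049 to 0.18 for Mpc1 and -0.30 to 0.045 for Mpc2. Between time points they were -0.13 to 0.021 for Hk1 and -0.19 to 0.042 for Hk2 (D15 minus D10) and -0.068 to 0.17 for Hk2 (D21 minus D15).

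Without length correction the D15 EAM shares were 13.6% for Hk3, 26.7% for Pfkp, 72.8% for Pfkfb3, 44.6% for Pgam1, 51.0% for Eno1, 61.1% for Ldha and 4.82% for Pdk3. With 4 hearts a group, a member that missed the threshold is not shown to be level.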
